A study of Homo sapiens with 4 samples.

Results

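The NRF2 antioxidant response is described here by 10 genes chosen by symbol: the transcription factor NFE2L2 (NRF2), its inhibitor KEAP1, and the genes NQO1, HMOX1, GCLC, GCLM, TXNRD1, TXN, SRXN1 and SLC7A11. Each of the 10 was listed among the 13036 genes measured, and each passed the filter on low values together with 11657 genes in all. RNA was sequenced from HCCLM3, a human hepatoma cell line, in which a short hairpin RNA either served as control (shCtrl, 2 samples) or targeted KIAA1429 (shKIAA1429, 2 samples). KIAA1429, listed under its current symbol VIRMA, belongs to the complex that writes N6-methyladenosine on RNA. The samples' labels give 1 control hairpin and 1 targeting hairpin, and nothing in them says that the replicates came from separate cultures, so p-values here measure only the spread between these samples, which may be technical. Each value is a sum of FPKM, which counts fragments relative to transcript length and to all mapped fragments, over the listed transcripts of the gene. Read depth per sample is unknown, so the counting error of a value cannot be given.

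NRF2 is a transcription factor that cells keep at a low level while they are unstressed. KEAP1 holds it in the cytoplasm and, with the scaffold CUL3 and the RING protein RBX1, marks it for degradation by the proteasome. Oxidants and electrophiles modify cysteines of KEAP1, NRF2 then accumulates, pairs with a small MAF protein and binds antioxidant response elements near genes for glutathione synthesis, thioredoxin recycling, quinone reduction and heme breakdown. In liver tumours the pathway is known for mutations in NFE2L2 and KEAP1 that leave it switched on. Much of this control acts on the NRF2 protein, which RNA values do not measure.

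The sequences shown first are those by which the 2 main NFE2L2 transcripts differ, since the level of these transcripts differed more between samples than that of any other NFE2L2 transcript. They were read from GRCh37 on the minus strand of chromosome 2 with the GENCODE 44 annotation, are written 5′ to 3′, and capitals mark the start codon that each transcript uses.
NFE2L2-201, coding bases 1 to 30: ATGatggacttggagctgccgccgccggga
NFE2L2-201, coding bases 43 to 66: caggacATGgatttgattgacata
NFE2L2-202, coding bases 1 to 18: ATGgatttgattgacata
In the middle line the capitals mark, within NFE2L2-201, the codon that NFE2L2-202 starts from. NFE2L2-201 has 1815 coding bases and its first coding base is at 178129304. NFE2L2-202 has 1767 coding bases and its first coding base is at 178098996, so its reading frame opens at codon 17 of NFE2L2-201 and lacks 16 codons. The N-terminal region that both frames enter is the one that KEAP1 binds.

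The antioxidant response element was searched as the letters TGACNNNGC on both strands of the RefSeq promoter windows (GRCh38.p14, 250 bases before to 50 after a start site). Windows were found for 8 of the 10 members, and the other 2, HMOX1 and SLC7A11, were not searched. The letters occurred in 4 of 11 windows, belonging to 3 members (GCLM, KEAP1 and TXNRD1), and in 13.3% of all 35116 windows. The 4 windows that hold them are shown by the match and 10 bases on each side, on the strand of the gene and with GRCh37 positions from an exact match of the window, and capitals mark the match.
GCLM, chr1:94375002-94375030, minus strand: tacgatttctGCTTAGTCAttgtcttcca
KEAP1, chr19:10613460-10613488, minus strand: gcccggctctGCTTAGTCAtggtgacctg
KEAP1, chr19:10613483-10613511, minus strand: acttttattgTGACACGGCgggcgcccgg
TXNRD1 downstream start, chr12:104680698-104680726, plus strand: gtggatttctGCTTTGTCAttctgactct
TXNRD1 upstream start, chr12:104609448-104609476, plus strand: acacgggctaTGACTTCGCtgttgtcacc
TXNRD1 upstream start, chr12:104609539-104609567, plus strand: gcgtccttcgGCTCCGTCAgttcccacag
Counting the start site as 0, the matches lay at -34 to -26 in GCLM, at -31 to -23 and -54 to -46 in KEAP1, and at -102 to -94 before the downstream start of TXNRD1. GCLM and 1 of the KEAP1 matches held the same letters, TGACTAAGC on the opposite strand. At TXNRD1, 9 listed transcripts started within 500 bases of the downstream start and 0 within 500 bases of the upstream start. A match is a description of letters and not a site at which binding was measured. Letters outside these windows were not searched, so a window without a match does not show that a gene lacks the element.

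To ask how high the members stood in these cells, their summed FPKM was ordered by the mean over the 4 samples. TXNRD1 was the most abundant member, followed by TXN, HMOX1 and SRXN1, and NQO1 was the least abundant. The ranges over the 4 samples did not overlap between TXNRD1 and TXN, between TXN and HMOX1, between SRXN1 and KEAP1, between GCLM and GCLC, or between GCLC and NQO1. HMOX1 overlapped SRXN1, KEAP1 overlapped NFE2L2, NFE2L2 overlapped SLC7A11, and SLC7A11 overlapped GCLM. TXNRD1 ranked at the 99.1 percentile of the 13036 genes listed, before the filter, KEAP1 at the 68.1, NFE2L2 at the 67.1 and NQO1 at the 20.6. FPKM is scaled to length, which allows levels to be compared between genes, but sums over incomplete transcript models can overstate a gene.

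**Figure D1:**
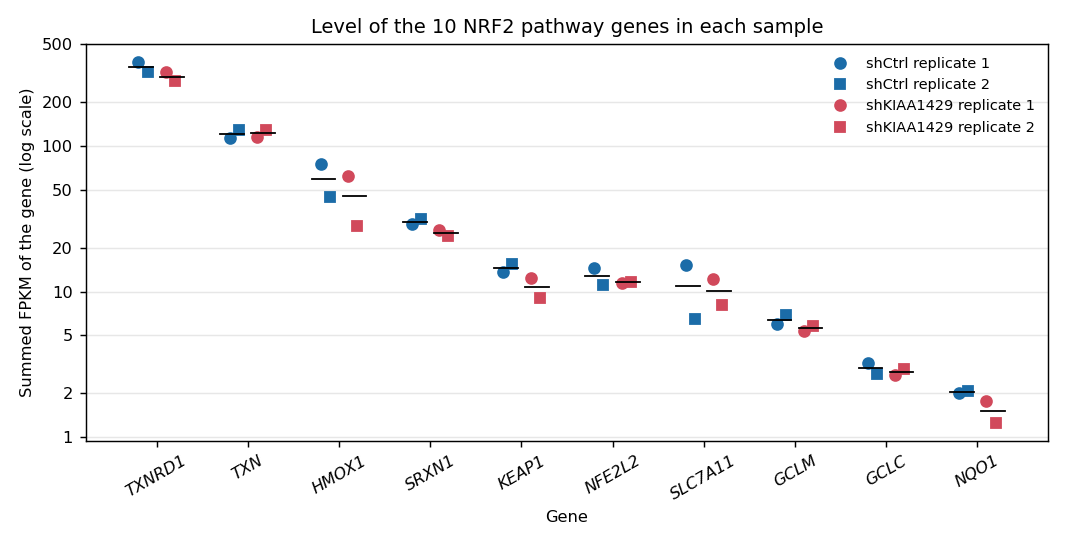
Summed FPKM (log scale) of the 10 members in each of the 4 samples, with a bar at each group's mean (n = 2). The members spread from 1.26 FPKM (NQO1, shKIAA1429 replicate 2) to 378 FPKM (TXNRD1, shCtrl replicate 1), and the differences between groups are small beside those between genes.

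Taken by group, the members differed little between the hairpins. Log2 fold changes (shKIAA1429 over shCtrl, of FPKM + 1) ran from -0.45 for HMOX1 to 0.01 for TXN, and 9 of 10 were below 0, beside 51.9% of all genes tested. Their median was -0.19, beside -0.01 over all genes tested. In limma with Benjamini-Hochberg adjustment over all genes, 0 of 10 members passed the thresholds of the study's methods (adjusted p under 0.05 and absolute log2 fold change over 1), where 0 genes in all passed (0%). The study applied these thresholds with DESeq to read counts and reported differentially expressed genes. The limma fit here, on log2(FPKM + 1), is another test. Since it called no gene at all, the result of 0 of 10 is not particular to the members. At an unadjusted p under 0.05 there were 0 of 10 members and 656 of 11657 genes (5.63%). For 5 members both shKIAA1429 samples were lower than either shCtrl sample (TXNRD1, SRXN1, KEAP1, GCLM and NQO1), beside 16.7% of all genes, and for 0 members both were higher, beside 16.9%.

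**Figure D2:**
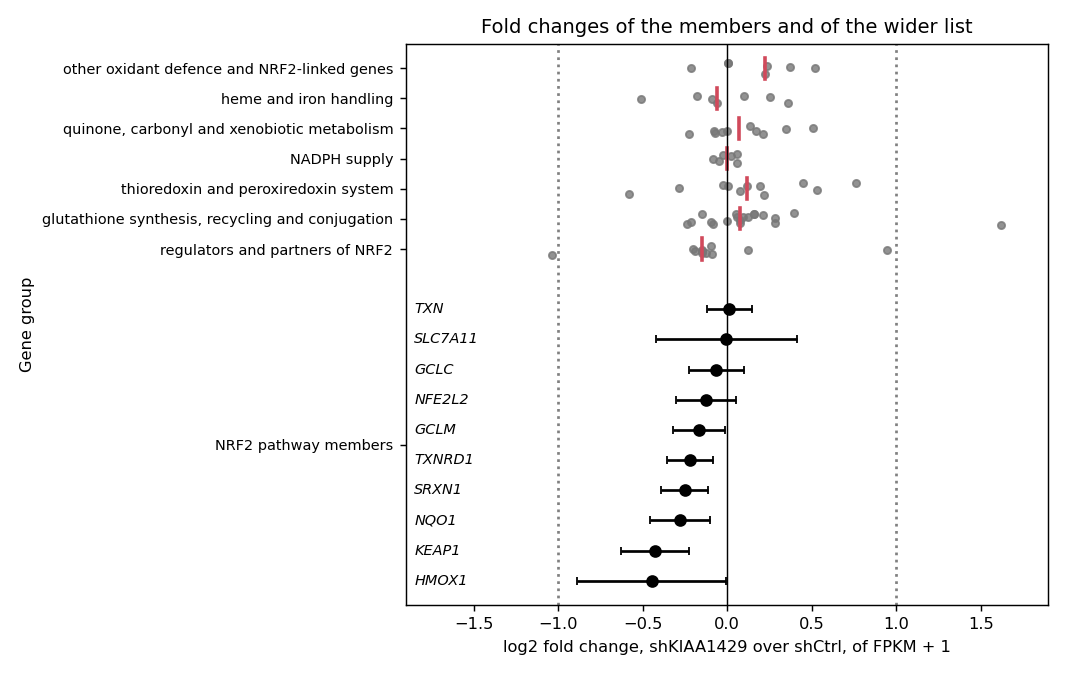
Log2 fold change (shKIAA1429 over shCtrl, of FPKM + 1) of the 10 members with the limma SE (n = 2 per group), and of the tested genes of 7 wider pathway groups as single points with a bar at the group's median. Dotted lines stand at -1 and 1; the members lie between -0.45 and 0.01, and 2 genes of the wider list, GPX1 and MAFF, lie past the lines without passing the test.

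NFE2L2 (ENSG00000116044.15_3, GRCh37 chromosome 2, 178092323 to 178129859, minus strand), the transcription factor itself, measured 14.5 and 11.1 FPKM in the shCtrl samples, against 11.5 and 11.7 FPKM in the shKIAA1429 samples. The groups overlapped, since shCtrl replicate 2 was the lowest sample and shCtrl replicate 1 the highest. Its log2 fold change was -0.13 (SE 0.18, limma adjusted p = 0.987), with means of 12.8 ± 2.42 FPKM in shCtrl and 11.6 ± 0.127 FPKM in shKIAA1429 (SD, n = 2). The value turned to 0.05 without shCtrl replicate 1. Exons of NFE2L2 overlap exons of HNRNPA3 and AGPS on the other strand, and whether reads were counted by strand is not given in the sources used here.

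Within NFE2L2 the mixture of transcripts differed between samples by more than the sum did, which was 1.31 times higher in shCtrl replicate 1 than in shCtrl replicate 2. NFE2L2-201, the transcript with the longer reading frame shown above, measured 9.41 and 3.37 FPKM in the shCtrl samples, against 7.10 and 3.93 FPKM in the shKIAA1429 samples. NFE2L2-202, with the shorter frame and named after its values were seen, measured 0.879 and 3.09 FPKM in the shCtrl samples, against 0.558 and 2.91 FPKM in the shKIAA1429 samples. In both groups NFE2L2-201 was higher in replicate 1 and NFE2L2-202 in replicate 2, so the exchange followed the replicate number and not the hairpin. The labels do not say what samples with the same number share. NFE2L2-201 made up 64.7% and 30.3% of the gene's sum in shCtrl and 61.8% and 33.7% in shKIAA1429. NFE2L2-202 made up 6.05% and 27.8% in shCtrl and 4.86% and 25.0% in shKIAA1429. These transcripts share most of their exons, and how fragments were divided between them is not given in the sources used here. The log2 fold changes were -0.09 (SE 0.55) for NFE2L2-201 and -0.17 (SE 0.66) for NFE2L2-202, smaller than the spread within either group.

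The genes whose profile over the 4 samples lay nearest to that of NFE2L2 were MARK3, FIP1L1 and PSD3. The measure was the root mean square distance between log2(FPKM + 1) profiles centred on their mean, over 4 samples and 7475 genes with a mean of at least 5 FPKM. It was 0.017 for MARK3, 0.018 for FIP1L1 and 0.020 for PSD3, and 38 genes lay within 0.05. Likeness over 4 samples is a description only.

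KEAP1 (ENSG00000079999.13_3, chromosome 19, 10596796 to 10614417, minus strand), the adaptor that presents NRF2 for degradation, measured 13.7 and 15.6 FPKM in the shCtrl samples, against 12.5 and 8.99 FPKM in the shKIAA1429 samples. Both shKIAA1429 samples lay below both shCtrl samples, with shKIAA1429 replicate 2 well below the other 3. The log2 fold change was -0.43 (SE 0.20, limma adjusted p = 0.917), the smallest adjusted p among the members, from means of 14.6 ± 1.36 and 10.7 ± 2.46 FPKM (SD, n = 2). Without shKIAA1429 replicate 2 it was -0.21, and without shKIAA1429 replicate 1 it was -0.64. The unadjusted p was 0.0888, and the difference did not pass the test.

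Most of the KEAP1 difference lay in 1 short transcript model. KEAP1-209, whose 3′ end is marked as incomplete in the annotation, measured 4.01 and 4.93 FPKM in the shCtrl samples, against 2.73 and 0.116 FPKM in the shKIAA1429 samples, a log2 fold change of -1.42 (SE 0.67, limma adjusted p = 0.927 over all transcripts). This value was -0.55 without shKIAA1429 replicate 2, -2.29 without shKIAA1429 replicate 1 and -2.54 with a pseudocount of 0.1. KEAP1-202, a model with no end marked incomplete, measured 6.23 and 5.90 FPKM in the shCtrl samples, against 4.78 and 4.48 FPKM in the shKIAA1429 samples, a log2 fold change of -0.33 (SE 0.17). KEAP1-201 went the other way in level, at 2.77 and 4.14 FPKM under shCtrl and 4.15 and 4.01 FPKM under shKIAA1429, and its groups overlapped. KEAP1-209 made up 29.3% and 31.6% of the KEAP1 sum in shCtrl but 21.9% and 1.30% in shKIAA1429, so the low KEAP1 value of shKIAA1429 replicate 2 goes with the near absence of this model in that sample.

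**Figure D3:**
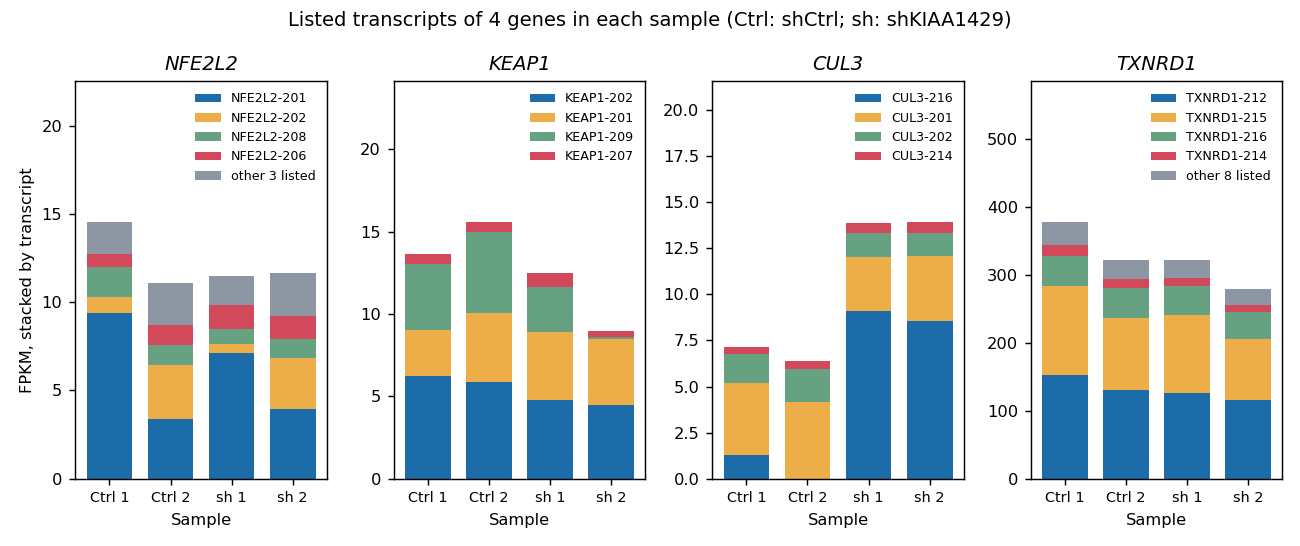
FPKM of the listed transcripts of NFE2L2, KEAP1, CUL3 and TXNRD1, stacked for each of the 4 samples (Ctrl is shCtrl, sh is shKIAA1429; each panel has its own linear axis from 0). NFE2L2-201 and NFE2L2-202 exchange between replicate 1 and replicate 2 in both groups, KEAP1-209 is close to 0 in shKIAA1429 replicate 2, and CUL3-216 is high in both shKIAA1429 samples.

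TXNRD1 (ENSG00000198431.15_3, chromosome 12, 104679780 to 104744083, plus strand) encodes cytosolic thioredoxin reductase, the selenoprotein that uses NADPH to recycle thioredoxin. It measured 378 and 322 FPKM in the shCtrl samples, against 321 and 279 FPKM in the shKIAA1429 samples. The groups did not overlap, though shCtrl replicate 2 and shKIAA1429 replicate 1 were almost equal. The log2 fold change was -0.22 (SE 0.14, limma adjusted p = 0.954), from means of 350.2 ± 39.2 and 300.2 ± 30.1 FPKM (SD, n = 2). It was -0.11 without shCtrl replicate 1, -0.12 without shKIAA1429 replicate 2 and -0.33 without shCtrl replicate 2.

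The TXNRD1 sum came from 12 listed transcripts. TXNRD1-212, the highest of them, measured 152 and 130 FPKM in the shCtrl samples, against 126 and 116 FPKM in the shKIAA1429 samples, with groups that did not overlap (log2 fold change -0.22, SE 0.13). TXNRD1-215 followed with 131 and 106 FPKM under shCtrl, against 115 and 90.2 FPKM under shKIAA1429, with overlapping groups. TXNRD1-216 measured 45.2 and 44.7 FPKM in the shCtrl samples, against 43.6 and 39.0 FPKM in the shKIAA1429 samples. TXNRD1-214, TXNRD1-213 and TXNRD1-205 had lower levels, between 4.37 and 15.2 FPKM over the samples, and log2 fold changes of -0.31, -0.42 and -0.18. These 6 transcripts all lay lower on average in shKIAA1429, with log2 fold changes from -0.42 to -0.12, so the difference was spread over them. Of the 9 listed TXNRD1 transcripts found in the annotation 5 are marked as incomplete, and their FPKM may overstate the sum. The first start of a listed transcript was 70223 bases after the annotated start of the gene, and 9 of the 12 started within 500 bases of the downstream start shown above. TXNRD1-215 and TXNRD1-216 started further downstream, at 104703629 and 104682673.

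TXN (ENSG00000136810.12_2, chromosome 9, 113006091 to 113018920, minus strand), the thioredoxin that TXNRD1 reduces, measured 114 and 129 FPKM in the shCtrl samples, against 115 and 130 FPKM in the shKIAA1429 samples. The samples paired by number almost exactly and the groups overlapped, with a log2 fold change of 0.01 (SE 0.13, limma adjusted p = 0.999). Nearly all of it was 1 transcript, TXN-202. SRXN1 (ENSG00000271303.1_3, chromosome 20, 627259 to 634014, minus strand) encodes sulfiredoxin, which repairs overoxidized peroxiredoxins. SRXN1 measured 29.0 and 31.4 FPKM in the shCtrl samples, against 26.5 and 24.0 FPKM in the shKIAA1429 samples, both lower, with a log2 fold change of -0.25 (SE 0.14, limma adjusted p = 0.943) from means of 30.2 ± 1.73 and 25.2 ± 1.72 FPKM (SD, n = 2). Exons of SRXN1 overlap another annotated gene on the same strand.

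HMOX1 (ENSG00000100292.16_2, chromosome 22, 35776828 to 35790207, plus strand) encodes heme oxygenase 1, which opens the heme ring and releases iron, carbon monoxide and biliverdin. It measured 74.9 and 44.4 FPKM in the shCtrl samples, against 62.1 and 28.4 FPKM in the shKIAA1429 samples. Replicate 1 exceeded replicate 2 by 1.69 times in shCtrl and by 2.18 times in shKIAA1429, so the groups overlapped and the replicate numbers separated the samples more than the hairpins did. The log2 fold change of -0.45 (SE 0.44, limma adjusted p = 0.983) was about as large as its error, and it turned to 0.10 without shKIAA1429 replicate 2.

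SLC7A11 (ENSG00000151012.13_2, chromosome 4, 139085251 to 139163503, minus strand) encodes the light chain of the exchanger that imports cystine in return for glutamate and so feeds glutathione synthesis. It measured 15.3 and 6.48 FPKM in the shCtrl samples, against 12.2 and 8.16 FPKM in the shKIAA1429 samples. Again replicate 1 was the higher sample in both groups, by 2.35 times in shCtrl and 1.5 times in shKIAA1429. A log2 fold change of -0.00449 resulted (SE 0.42, limma adjusted p = 0.999), and leaving out single samples moved it between -0.56 and 0.56. Exons of SLC7A11 overlap those of its antisense gene SLC7A11-AS1.

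GCLC and GCLM encode the catalytic and the modifier subunit of glutamate-cysteine ligase, the rate-limiting step of glutathione synthesis. GCLM (ENSG00000023909.9_2, chromosome 1, 94350761 to 94375012, minus strand) measured 5.96 and 6.89 FPKM in the shCtrl samples, against 5.38 and 5.84 FPKM in the shKIAA1429 samples. Both shKIAA1429 values were lower, shKIAA1429 replicate 2 by a narrow margin, and the log2 fold change was -0.17 (SE 0.16, limma adjusted p = 0.981), or -0.08 without shCtrl replicate 2 and -0.26 without shCtrl replicate 1. GCLC (ENSG00000001084.10_3, chromosome 6, 53362139 to 53409927, minus strand) measured 3.25 and 2.72 FPKM in the shCtrl samples, against 2.67 and 2.94 FPKM in the shKIAA1429 samples. Its groups overlapped, with a log2 fold change of -0.06 (SE 0.16, limma adjusted p = 0.999), and its exons overlap the antisense gene GCLC-AS1. The modifier subunit stood above the catalytic subunit in every sample.

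NQO1 (ENSG00000181019.12_2, chromosome 16, 69743304 to 69760854, minus strand) encodes the quinone reductase that is widely used as a readout of NRF2 activity. It measured 2.01 and 2.08 FPKM in the shCtrl samples, against 1.78 and 1.26 FPKM in the shKIAA1429 samples. Both shKIAA1429 samples were lower, shKIAA1429 replicate 2 the more so, with a log2 fold change of -0.28 (SE 0.18, limma adjusted p = 0.954). It was -0.13 without shKIAA1429 replicate 2 and -0.43 without shKIAA1429 replicate 1. This scale understates the change of a gene so close to 1 FPKM. Exons of NQO1 overlap another annotated gene on the other strand. The low NQO1 level stood beside a TXNRD1 level in the top percentile of genes, so the members are not expressed as a block of equal height.

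Across transcripts, the members had 35 listed, of which 28 passed the filter. None of the 28 passed both thresholds in limma (0 of 24996 transcripts in all, 0%). The smallest unadjusted limma p among them was 0.0759, for GCLC-209, which was higher in shKIAA1429 (log2 fold change 0.45). The groups did not overlap for 14 of them, 11 lower in shKIAA1429, beside 16.8% of all transcripts, and 3 higher, beside 16.7%. The lower ones included TXNRD1-201, TXNRD1-212, TXNRD1-213, TXNRD1-214 and TXNRD1-216, and KEAP1-202 and KEAP1-209. Models of the same gene are not independent, so this count is not one of separate genes. The 3 that were higher were GCLC-209, NFE2L2-206 and TXNRD1-202, named after their values were seen, each under 4 FPKM in every sample.

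**Figure D4:**
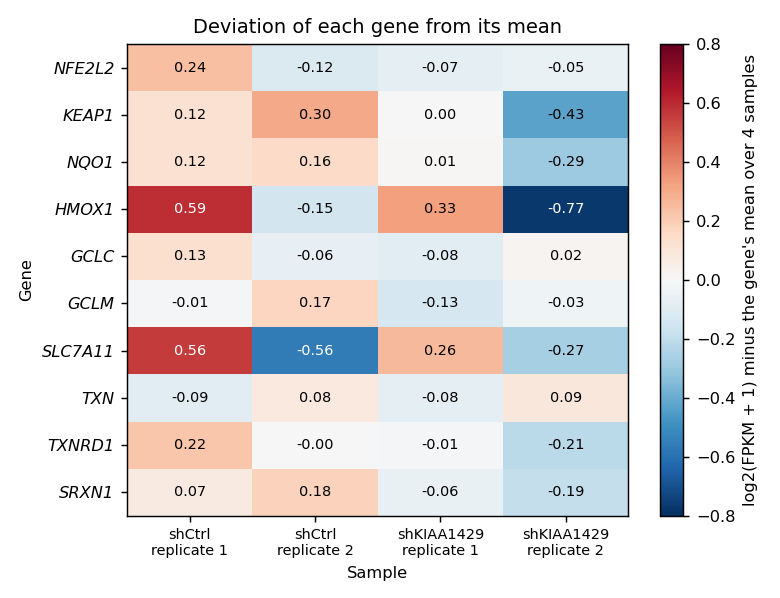
Deviation of log2(FPKM + 1) from the gene's mean over the 4 samples, for each member (rows) and sample (columns); red is above and blue below the mean. HMOX1 and SLC7A11 are above their mean in replicate 1 and below it in replicate 2 of both groups, and shKIAA1429 replicate 2 is below the mean for 8 of 10 members.

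Sample by sample, the members' median deviation from their own mean was 0.13 and 0.04 for shCtrl replicates 1 and 2, and -0.03 and -0.20 for shKIAA1429 replicates 1 and 2. Over all genes tested it lay between -0.012 and 0.014 in the 4 samples. The samples were therefore ordered by group in the members as a whole, with shKIAA1429 replicate 2 the lowest. However, shCtrl replicate 2 and shKIAA1429 replicate 1 lay closer together than the pooled SD of this median within groups, 0.096. In shKIAA1429 replicate 2, 2 of 10 members, GCLC and TXN, were above their mean, and in shCtrl replicate 1 it was 8 of 10. In shCtrl replicate 2 it was 5 and in shKIAA1429 replicate 1 it was 4. The median fold change of the members was -0.09 without shCtrl replicate 1 and -0.29 without shKIAA1429 replicate 1. This difference is a description of 10 genes and was not tested.

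The rest of the pathway was followed with a list of 83 genes in 7 groups, of which 72 had a listed transcript and 71 were tested. None passed both thresholds in limma, 7 of 71 had an unadjusted p under 0.05 (5.63% over all genes), 19 were higher and 10 lower without overlap (16.9% and 16.7% over all genes), and the median log2 fold change was 0.05, on the other side of 0 from the members. The 11 genes with no listed transcript included AKR1B10, AKR1C1, AKR1C2 and AKR1C3, aldo-keto reductases known as strong NRF2 targets in human cells. A missing row says only that these genes were not analysed here.

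Among the regulators and partners of NRF2, 1 of 11 was higher and 2 were lower without overlap, beside 16.9% and 16.7% of all genes, and the median was -0.15. CUL3, the scaffold of the ligase to which KEAP1 brings NRF2, measured 7.12 and 6.38 FPKM in the shCtrl samples, against 13.9 and 13.9 FPKM in the shKIAA1429 samples. Its log2 fold change was 0.95 (SE 0.14, limma adjusted p = 0.368, unadjusted p = 0.00135). The difference came from 1 transcript: CUL3-216 measured 1.28 and 1e-06 FPKM in the shCtrl samples, against 9.08 and 8.56 FPKM in the shKIAA1429 samples. The log2 fold change of CUL3-216 was 2.70 (SE 0.47), or 4.58 (SE 1.42) with a pseudocount of 0.1. That model was not found in the annotation used here, so the CUL3 difference rests on a model without that backing. It spans 225338651 to 225370688 on chromosome 2, inside CUL3-201 (225334867 to 225450065). CUL3-201 lay lower in shKIAA1429, at 2.95 and 3.52 FPKM, than in shCtrl, at 3.91 and 4.16 FPKM. The higher sum thus did not come from the longer transcript. Exons of CUL3 overlap another annotated gene on the other strand.

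MAFF, a small MAF protein that can pair with NRF2, measured 4.05 and 11.8 FPKM in the shCtrl samples, against 3.26 and 2.61 FPKM in the shKIAA1429 samples. The log2 fold change was -1.03 (SE 0.46, limma adjusted p = 0.907), and it rested on shCtrl replicate 2, without which it was -0.36. Exons of MAFF overlap those of PLA2G6 on the other strand. MAFG and MAFK, the other small MAF genes, overlapped between groups, with log2 fold changes of -0.15 and -0.15. RBX1, BACH1 (a repressor that competes for the same elements), NFE2L1, SQSTM1, BTRC and CAND1 overlapped as well, and GSK3B, a kinase that marks NRF2 for another ligase, was lower in both shKIAA1429 samples (-0.20).

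The glutathione group held the gene with the largest fold change of the list. GPX1, the cytosolic glutathione peroxidase, measured 38.7 and 32.2 FPKM in the shCtrl samples, against 141 and 87.0 FPKM in the shKIAA1429 samples, a log2 fold change of 1.62 (SE 0.26, limma adjusted p = 0.417, unadjusted p = 0.00179). Different transcripts carried it in the 2 shKIAA1429 samples. GPX1-202 was at 133 FPKM in replicate 1 but 17.2 FPKM in replicate 2, beside 30.5 and 31.2 FPKM in shCtrl, while GPX1-204 was at 6.59 and 69.2 FPKM, beside 7.76 and 0 FPKM. GPX1-204 was not found in the GENCODE 44 annotation, and GPX1 exons overlap another annotated gene on the same strand. Over the 19 tested genes of this group 7 were higher and 3 lower without overlap, beside 16.9% and 16.7% of all genes, and the median was 0.08. SLC3A2, the heavy chain that pairs with SLC7A11, was among the 3 lower (-0.24), with GSR (-0.22) and GSTO1 (-0.09).

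In the thioredoxin and peroxiredoxin group 4 of 11 genes were higher and 2 lower without overlap, beside 16.9% and 16.7% of all genes. The median of the group was 0.12, and the peroxiredoxins lay on both sides of 0. PRDX3, the mitochondrial peroxiredoxin, measured 21.6 and 26.6 FPKM in the shCtrl samples, against 37.8 and 45.3 FPKM in the shKIAA1429 samples (log2 fold change 0.76, SE 0.17, limma adjusted p = 0.606). PRDX1, a cytosolic form, measured 205 and 144 FPKM in the shCtrl samples, against 97.0 and 135 FPKM in the shKIAA1429 samples (-0.58, SE 0.25, limma adjusted p = 0.899). The PRDX1 fold change was -0.33 without shCtrl replicate 1 and -0.35 without shKIAA1429 replicate 1, and its exons overlap those of MMACHC on the other strand. PRDX4, of the endoplasmic reticulum, measured 67.6 and 77.5 FPKM in the shCtrl samples, against 58.1 and 60.5 FPKM in the shKIAA1429 samples (-0.28, SE 0.13, limma adjusted p = 0.917), and its fold change was -0.19 without shCtrl replicate 2. None of these passed the test. TXNIP, which binds and inhibits thioredoxin, and SESN2, a stress-induced sestrin, showed the same order by replicate number as HMOX1 and SLC7A11 and were named after their values were seen. TXNIP measured 107 and 33.6 FPKM in the shCtrl samples, against 105 and 46.8 FPKM in the shKIAA1429 samples, and SESN2 at 49.4 and 16.6 FPKM and at 48.8 and 32.0 FPKM.

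**Figure D5:**
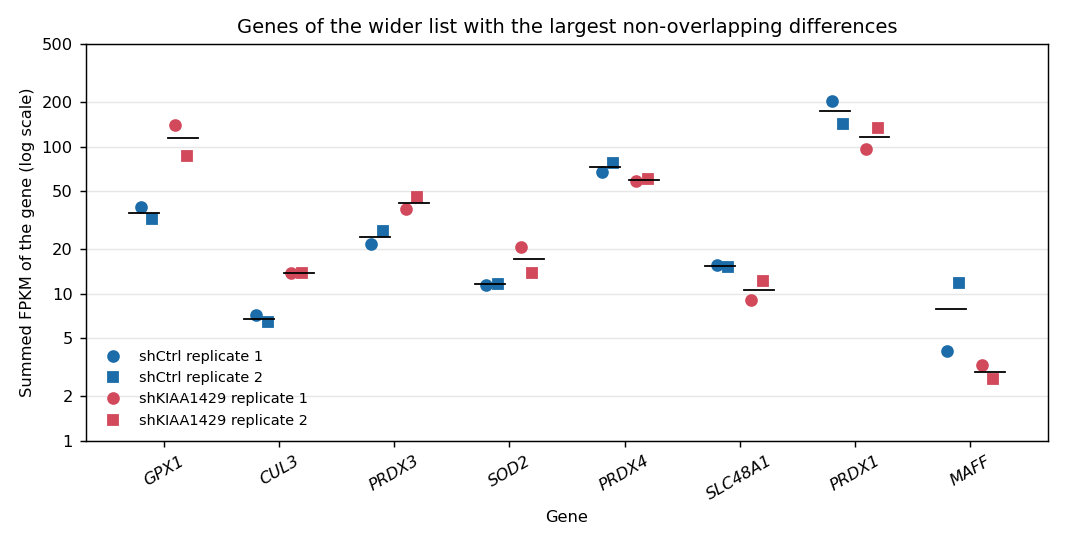
Summed FPKM (log scale) of the 8 genes of the wider list with the largest differences in either direction among those with non-overlapping groups and a mean of at least 5 FPKM; bars stand at each group's mean (n = 2). GPX1, CUL3, PRDX3 and SOD2 are higher in both shKIAA1429 samples and PRDX4, SLC48A1, PRDX1 and MAFF lower, and 0 of the 8 passed the thresholds.

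Genes that help to supply NADPH, on which thioredoxin and glutathione reductases depend, differed little. PGD, TKT, TALDO1, ME1 and IDH1 had log2 fold changes between -0.08 and 0.06. Their groups overlapped in 5 of 5, where over all genes 16.9% were higher and 16.7% lower without overlap, so overlap is not particular to them. In the heme and iron group 1 of 7 tested genes was higher and 1 lower without overlap, beside 16.9% and 16.7% of all genes. The higher was BLVRB, at 32.8 and 38.1 FPKM in the shCtrl samples, against 44.4 and 47.2 FPKM in the shKIAA1429 samples (0.36, SE 0.14, limma adjusted p = 0.887). The lower, SLC48A1, a heme transporter, measured 15.7 and 15.1 FPKM in the shCtrl samples, against 9.03 and 12.2 FPKM in the shKIAA1429 samples (-0.51, SE 0.18, limma adjusted p = 0.884), or -0.31 without shKIAA1429 replicate 1. Exons of SLC48A1 overlap those of HDAC7 and RAPGEF3 on the other strand. FTL, the ferritin light chain, stayed between 2108 and 2641 FPKM with overlapping groups. Among the other oxidant defence genes, SOD2, the mitochondrial superoxide dismutase, measured 11.5 and 11.6 FPKM in the shCtrl samples, against 20.8 and 13.8 FPKM in the shKIAA1429 samples (0.52, SE 0.22, limma adjusted p = 0.901). SOD2 was at 0.23 on this scale without shKIAA1429 replicate 1 and at 0.80 without shKIAA1429 replicate 2. Its exons overlap those of WTAP, an m6A writer gene on the other strand. In the quinone, carbonyl and xenobiotic group 4 of 10 genes were higher and 2 lower without overlap, beside 16.9% and 16.7% of all genes, with a median of 0.07.

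The targeted gene and the cell type were checked in the same samples. VIRMA measured 9.37 and 14.1 FPKM in the shCtrl samples, against 6.90 and 8.52 FPKM in the shKIAA1429 samples, a log2 fold change of -0.53 (SE 0.24, limma adjusted p = 0.917), and the exact permutation test (two-sided) gave p = 0.333, the smallest that 2 samples against 2 allow. VIRMA was lower in each shKIAA1429 sample than in either shCtrl sample. It did not pass the limma thresholds, which no gene passed, and the permutation test cannot give a p under 0.05 here. Neither result therefore decides whether the hairpin lowered VIRMA. Of 10 hepatocyte and hepatoma markers 3 had a listed transcript (KRT8, KRT18 and SERPINA1), and defining genes such as ALB, AFP and HNF4A had none. KRT8 ran from 1019 to 1176 FPKM and KRT18 from 971 to 1073 FPKM, while SERPINA1 ran from 3.34 to 5.63 FPKM. The listed markers thus do not settle how far these cells resemble hepatocytes. The summed markers ran from 9.05 to 11.7 FPKM for fibroblasts (3 of 4 listed) and from 44.1 to 52.3 FPKM for immune cells, all from CD68, and 0 of 3 endothelial markers were listed. In such bulk samples a smaller share of cells expressing a gene and less RNA per cell cannot be told apart.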

How the data were processed

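Per the file headers, the authors deposited FPKM per annotated transcript. The submitters' processing notes name hg19 and Bowtie2 2.1.0, the study's methods describe paired reads aligned with TopHat, and the tool that gave FPKM is not given in the sources used here. Listed transcripts reached at least 0.504 FPKM in some sample, and 108 symbols turned into dates were restored.

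FPKM was summed per gene identifier, genes with at least 1 FPKM in at least 2 samples were kept, and log2(FPKM + 1) was compared by limma 3.58.1 in R 4.3.3 (lmFit, eBayes with trend, group only, two-sided), with Benjamini-Hochberg adjustment over all 11657 genes or 24996 transcripts. The fit was tested on simulated data with planted changes larger than any seen in the members or the wider list. Its power for changes as small as theirs was not assessed. The members and lists were chosen with earlier results of these data known. Named were the 10 members, their transcripts with a mean of at least 5 FPKM or, from 2 FPKM, a change over 2-fold, any gene of the wider list past both thresholds, the 4 highest and 4 lowest non-overlapping genes of that list from 5 FPKM, VIRMA and the 3 genes nearest to NFE2L2; other names were chosen after their values were seen, and 1 gene of the wider list is not reported here. Alternatives were a pseudocount of 0.1, no filter, the filter in every sample, upper quartile scaling, a robust variance estimate, the replicate number as a block and leaving out each replicate.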

Additional observations from a re-analysis of the deposited data

How the results depend on the processing

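With all 4 samples, 0 members and 0 genes of the wider list passed both thresholds under every alternative. SLC7A11, whose log2 fold change is close to 0, turned to 0.0035 with a pseudocount of 0.1 and to 0.0056 with upper quartile scaling, and TXN-202 turned to -0.0044 with upper quartile scaling. With a replicate left out, the lone sample of a group being assumed to vary like the others, the count of genes past both thresholds ran from 0 to 1 (the 1 being HIST4H4 without shCtrl replicate 1, named after its values were seen, where 599 genes had an unadjusted p below 0.05) and the members' median from -0.29 to -0.091; the cause was not tested. Of 34 named gene and transcript values, 10 changed sign: NFE2L2 ran from -0.30 to 0.055, HMOX1 from -0.996 to 0.10, GCLC from -0.16 to 0.031, TXN from -0.072 to 0.10, SLC7A11 from -0.56 to 0.56, NFE2L2-201 from -0.72 to 0.53, NFE2L2-202 from -0.83 to 0.50, TXN-202 from -0.077 to 0.095, TXNRD1-205 from -0.38 to 0.017 and GPX1-202 from -0.81 to 2.07. VIRMA ran from -0.80 to -0.26.

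Same-numbered samples deviated together (Pearson r = 0.324 across 11657 genes, which are not independent, and 0.60 across the 10 members), but with 2 pairs and no label of a shared batch the numbers were not taken to pair the samples. With the replicate block 0 genes were past both thresholds, and an unadjusted p under 0.05 was found for 1269 genes, beside 656 without it, and for 2 of 10 members (HMOX1 and TXNRD1), beside 0. The limma adjusted p-value with the block was 0.432 for HMOX1, 0.442 for TXNRD1 and 0.420 for VIRMA. Depth is unknown, so counting error was not assessed.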
